A study of Mus musculus with 16 samples.

Results

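To describe how histone acetylation in macrophages treated with interferon gamma (IFNγ) and a PARP inhibitor differed from that in untreated macrophages, the H3K27ac peak list of the IFNγ+PJ34 condition was set against the list of the Control condition. The lists were taken by their condition labels. The comparison covered 42960 IFNγ+PJ34 peaks and 43533 Control peaks, 86493 of the 171291 peaks in the 4 lists of the series, and came from 4 of its 16 samples.

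The study profiled bone marrow-derived macrophages (BMDMs), primary cells grown from the marrow of C57Bl6 mice aged 8 to 12 weeks, by chromatin immunoprecipitation and sequencing (ChIP-seq) of H3K27ac. Control cells were untreated. IFNγ+PJ34 cells received 20 µM PJ34, an inhibitor of PARP-1 and related enzymes, starting 1 h before 100 ng/mL IFNγ, and were exposed to IFNγ for 1 h. Each condition had 2 ChIP replicates and 2 input DNA samples, and the other conditions were IFNγ alone and PJ34 alone. The labels do not say whether the replicates came from separate mice. Because the authors merged both replicates of a condition into 1 peak list, replicate error cannot be given for any value, and no test between the conditions was possible. The comparison describes the combined treatment, and the parts played by IFNγ and by PJ34 in it cannot be told apart from these lists alone. PJ34 acts on more than 1 PARP enzyme, so it does not stand for the loss of PARP-1 alone.

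H3K27ac, acetylation of lysine 27 of histone H3, marks active promoters and enhancers. IFNγ binds a receptor coupled to the kinases JAK1 and JAK2. The GAS element, a short palindrome, lies near IFNγ-responsive genes for host defence, among them the guanylate-binding proteins, the immunity-related GTPases and the chemokines CXCL9 and CXCL10. Interferon regulatory factors bind a related element, the ISRE. PARP-1 attaches chains of ADP-ribose to proteins at chromatin and uses NAD to do so. AP-1 and NF-κB factors act on immediate-early and inflammatory genes in macrophages.

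The following sequences are shown because they lie in peaks on which the results turn. The Tnfsf18, Gbp4, Gbp10 and Cd274 stretches are from IFNγ+PJ34 peaks absent from Control. The Kmo stretch is from the shared peak with the largest difference in rank, and the Cxcl1 stretch is from the highest-ranked Control peak absent from IFNγ+PJ34. Each is 161 bases of the plus strand of mm10 (GRCm38.p6, RefSeq), written 5′ to 3′, and none overlaps an annotated exon of a protein-coding gene. The first 5 are centred on the GAS match nearest to the peak summit, and that of Cxcl1 is centred on the summit. Capitals mark matches, on either strand, to the letters of GAS (TTCNNNGAA), the ISRE core (GAAANNGAA), PU.1 (GAGGAAGT), AP-1 (TGANTCA), NF-κB (GGGANTTCC) and C/EBP (TTGCNNAA).
Tnfsf18 distal, chr1:161517589-161517749: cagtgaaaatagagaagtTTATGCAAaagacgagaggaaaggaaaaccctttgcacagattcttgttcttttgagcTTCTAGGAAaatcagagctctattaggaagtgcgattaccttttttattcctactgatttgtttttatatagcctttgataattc
Gbp4 upstream, chr5:105145788-105145948: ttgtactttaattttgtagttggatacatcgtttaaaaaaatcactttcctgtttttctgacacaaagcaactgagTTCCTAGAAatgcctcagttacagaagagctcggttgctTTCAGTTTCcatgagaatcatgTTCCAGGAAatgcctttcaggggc
Gbp10 intronic copy, chr5:105263354-105263514: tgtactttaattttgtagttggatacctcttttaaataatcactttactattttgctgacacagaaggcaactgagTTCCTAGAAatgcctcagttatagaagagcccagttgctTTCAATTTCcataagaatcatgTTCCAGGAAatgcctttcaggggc
Cd274 downstream, chr19:29403096-29403256: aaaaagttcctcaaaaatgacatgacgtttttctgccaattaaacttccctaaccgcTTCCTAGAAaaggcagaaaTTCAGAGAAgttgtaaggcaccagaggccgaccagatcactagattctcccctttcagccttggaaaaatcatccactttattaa
Kmo intron, chr1:175632385-175632545: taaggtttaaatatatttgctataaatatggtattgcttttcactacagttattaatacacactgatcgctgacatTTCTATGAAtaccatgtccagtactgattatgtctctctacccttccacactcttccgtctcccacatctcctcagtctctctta
Cxcl1 upstream, chr5:90881292-90881452: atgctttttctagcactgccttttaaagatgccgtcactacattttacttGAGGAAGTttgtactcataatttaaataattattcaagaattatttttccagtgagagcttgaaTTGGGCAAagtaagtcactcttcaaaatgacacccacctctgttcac
The Gbp4 and Gbp10 stretches lie 117.6 kb apart in the same gene cluster and differ by 15 single-base edits in 161 bases, and both hold 2 GAS matches on either side of an ISRE core match. The Gbp10 copy lies in an intron of the predicted gene Gm43302. Whether reads were placed rightly between such similar copies was not tested, so the split of signal between them is uncertain. The Cd274 stretch holds 2 GAS matches, 301 and 282 bp before the summit of its peak. The Cxcl1 stretch holds a PU.1 match and a C/EBP match and no GAS match. Over all IFNγ+PJ34 peaks, 20.1% of the 601 bp windows centred on the summit held a GAS match and 22.1% an ISRE core match, so a single match is common. A match describes the letters and is not evidence of binding.

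A peak's place in its own list is given as a rank percentile of the authors' score, from just above 0 for the lowest to 100 for the highest score. It compares order and not the amount of acetylation. Peaks often shared a score, and the most frequent value was held by 9.32% of Control peaks and 7.15% of IFNγ+PJ34 peaks. The lists hold no read counts. The read count expected at background, inferred from the 20 most frequent p-values of a list, was 4.54 in Control and 2.83 in IFNγ+PJ34, or 62.3% of Control, but it depends on how each list was scaled to its input. The inferred value accounted for 84.1% of the peaks with those p-values in Control and 49.4% in IFNγ+PJ34, so it is less certain there. This lower inferred background moves with every difference given below, and its part in them was not tested. The cell type label was checked at the start sites of 16 macrophage identity genes, among them Spi1, Csf1r, Adgre1 and Cd68. Peaks covered 16 of 16 in both lists. Peaks covered 3 of 25 start sites of marker genes of T cells, B cells, neutrophils, fibroblasts and dendritic cells in both lists, and Cd3e, Ly6g and Col1a1 had none.

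Of the IFNγ+PJ34 peaks, 8935 of 42960 did not overlap any Control peak by 1 bp (20.8%, exact Clopper-Pearson 95% interval 20.4 to 21.2%). In the other direction, 14032 of 43533 Control peaks were absent from IFNγ+PJ34 (32.2%, 31.8 to 32.7%). Intervals, here and below, allow for counting error alone, as if the peaks or genes counted were independent of each other. Absent peaks were narrow and ranked low. The 8935 IFNγ+PJ34-only peaks had a median width of 407 bp and a median percentile of 27.04, and the 14032 Control-only peaks had a median width of 409 bp and a median percentile of 19.9. Peaks found in the other list had median widths of 756 bp in IFNγ+PJ34 and 1112 bp in Control.

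The balance between the directions turned with rank. In the lowest 10 points of the percentile scale, 71.2% of Control peaks and 37.5% of IFNγ+PJ34 peaks were absent from the other list. Between percentiles 70 and 80, 1.60% of Control peaks and 6.10% of IFNγ+PJ34 peaks were absent. In the top 25% of each list, 187 of 10693 IFNγ+PJ34 peaks (1.75%, 1.51 to 2.02%) were absent from Control, against 15 of 10902 Control peaks (0.138%, 0.0770 to 0.227%) absent from IFNγ+PJ34. In the top 10%, the counts were 18 of 4305 (0.418%) and 0 of 4346, where the exact interval reaches up to 0.0848%. High-ranked absent peaks were thus mainly on the IFNγ+PJ34 side, while the more numerous absent peaks on the Control side mostly ranked low.

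**Figure D1:**
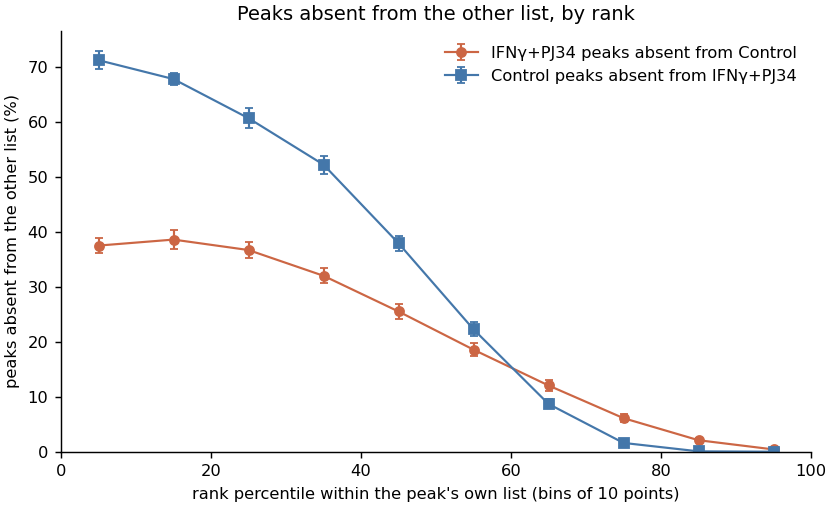
Share of peaks absent from the other list (y axis, percent) by rank percentile in the peak's own list (x axis, bins of 10 points), for IFNγ+PJ34 peaks (orange circles) and Control peaks (blue squares). Bars are exact 95% intervals, and the curves cross near percentile 60: below it Control peaks are more often absent (71.2% against 37.5% in the lowest bin), above it IFNγ+PJ34 peaks are (6.10% against 1.60% between 70 and 80).

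Absent peaks of both lists lay away from promoters. The summit was within 1 kb of a start site of a protein-coding gene for 4.49% of IFNγ+PJ34-only peaks and 7.16% of Control-only peaks. Among the higher-scoring 50% of the lists, promoters made up 3.43% of IFNγ+PJ34-only peaks against 47.7% of IFNγ+PJ34 peaks found in Control. For Control the values were 6.45% and 47.6%. Absent peaks still ranked lower within that 50%, so these contrasts are not free of rank. In its lowest 10 points 18.6% of IFNγ+PJ34 and 22.3% of Control peaks were absent, against 0.418% and 0% in its highest 10 points. Introns held 50.3% and intergenic sequence 42.0% of the IFNγ+PJ34-only peaks.

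The highest-ranked IFNγ+PJ34-only peak lay at chr1:161517572-161520236, 23.2 kb from the nearest start site, that of Tnfsf18, which encodes the ligand of the co-stimulatory receptor GITR. It was at percentile 96.2 in IFNγ+PJ34 and had no peak in Control, and peaks there reached 80.2 in IFNγ alone and 46.0 in PJ34 alone. Next came a peak of 6291 bp in an intron of Map3k3, a kinase of MAP kinase cascades, at percentile 95.7, with 88.7 in IFNγ and 32.8 in PJ34. A peak of 5988 bp in an intron of Mtdh was at 95.0, with 83.8 in IFNγ and 15.3 in PJ34. These 3 places were absent from Control and marked in each of the treated lists. The IFNγ and PJ34 lists are compared with the same Control list, so their values are given only beside the members.

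Some other high-ranked IFNγ+PJ34-only peaks ranked low or were missing after the single treatments. The peak 43.4 kb from Qpct, a glutaminyl cyclase gene, was at percentile 95.2 in IFNγ+PJ34 and had no peak in any of the other lists. The peak in an intron of Mrpl1, a mitochondrial ribosomal protein gene, was at 92.9, against 4.55 in IFNγ and none in PJ34. The peak 79.9 kb from Ado was at 94.0, against 34.3 in IFNγ and 15.3 in PJ34. The remaining members of the 8 highest-ranked were a peak in an intron of Pop4 at 93.2, with 71.4 in IFNγ, and a peak in an intron of Thada at 92.4, with 86.0 in IFNγ. None of the 8 was at a promoter.

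The highest-ranked Control-only peak lay at chr5:90879443-90882038, 9.87 kb upstream of Cxcl1, a neutrophil-attracting chemokine gene. It was at percentile 84.5 in Control, 85.2 in IFNγ and 86.1 in PJ34, and had no peak in IFNγ+PJ34. The other 7 of the 8 highest-ranked Control-only peaks also had a peak in both single-treatment lists. The 8 were chosen for ranking high in Control and being absent from IFNγ+PJ34, so those 2 traits were fixed. How often Control peaks of like rank had a peak in both single-treatment lists was not counted. Among the other 7, a peak in an intron of Ptges, which encodes a prostaglandin E synthase, was at 76.8 in Control, 77.5 in IFNγ and 81.7 in PJ34. A peak 0.916 kb from the start site of Itih1 was at 78.7, 82.0 and 80.9. The others were nearest to Scgn, Frmd6, Sfn, Tmc3 and Xylt2, with Control percentiles from 77.0 to 81.3.

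**Figure D2:**
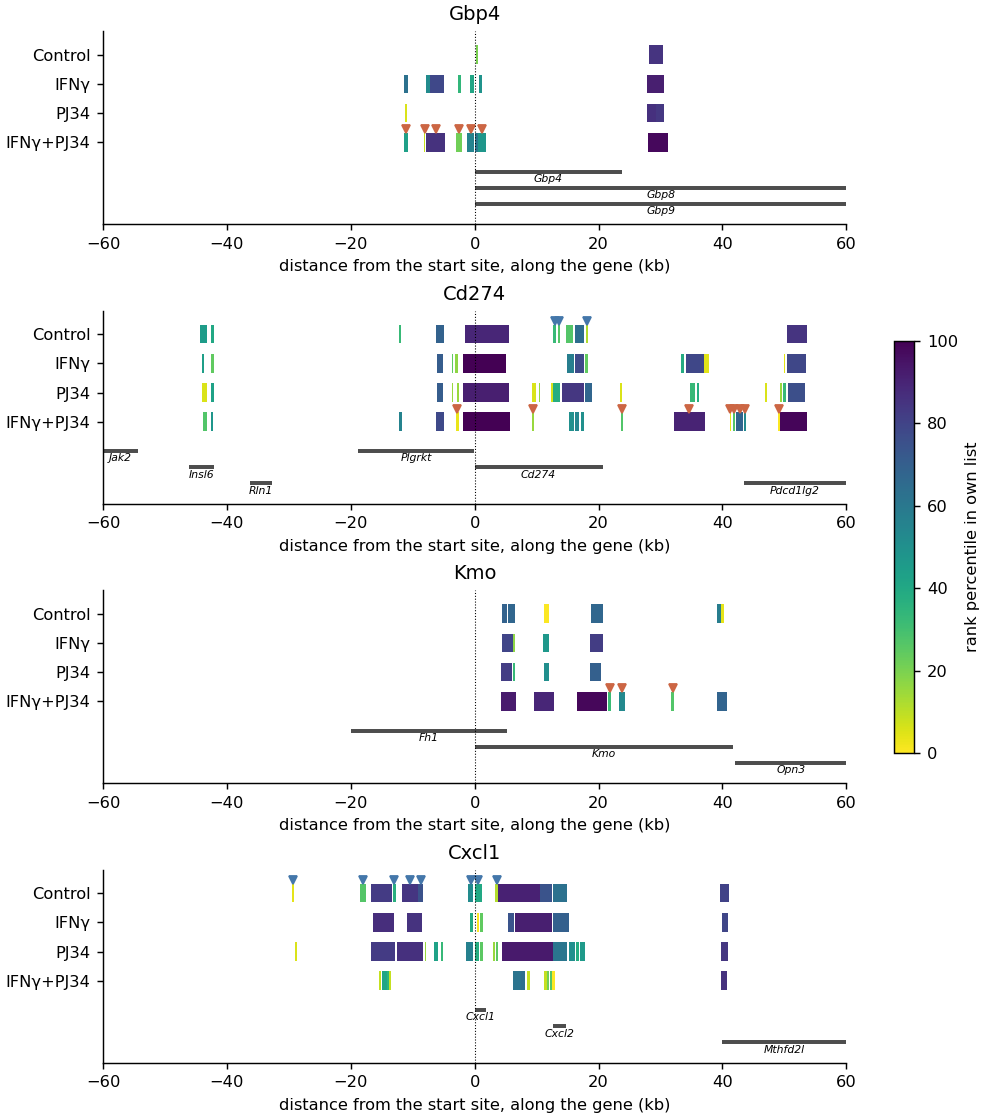
Peaks of the 4 lists around the start sites of Gbp4, Cd274, Kmo and Cxcl1 (x axis, distance from the gene's outermost start site in kb, positive into the gene), coloured by rank percentile in their own list, with genes as grey bars. Triangles mark peaks absent from the other list of the Control and IFNγ+PJ34 pair: orange triangles surround Gbp4, which has 6 such peaks within 50 kb, and blue triangles surround Cxcl1, which has 8.

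Peaks present in both lists were paired where each had its longest overlap with the other, which gave 27332 pairs. The shift of a pair is its percentile in IFNγ+PJ34 minus that in Control. The median shift was -3.39 points, with quartiles at -14.2 and 5.79. It was at least 20 points upward at 2873 pairs (10.5%) and at least 20 points downward at 4872 pairs (17.8%). The excess of downward shifts rests on ranking each peak within its whole list: when percentiles were taken among the paired peaks alone, 14.1% were higher by 20 points and 13.3% lower. At the edge of the threshold, a pair near Fcho2 went from 40.2 to 60.2 and was counted, and a pair near Susd1 went from 62.0 to 82.0, a shift of 19.99 points, and was not. In the downward direction, a pair near Ugt1a6a went from 67.3 to 47.3 and was counted, and a pair near Gm11808 went from 75.4 to 55.4 and was just outside.

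Large shifts were mostly found away from promoters. At 10495 promoter pairs, 2.11% were higher and 10.0% lower by 20 points, against 15.8% and 22.7% of 16837 other pairs. Promoter pairs had a median Control percentile of 83.4 and the others 57.0. A peak near the top of its list has no room to rise by 20 points, so the upward shares are not on equal terms. The downward shares moved with rank too. Pairs lower by 20 points had a median Control percentile of 62.0, and pairs within 20 points 74.8. Width moved with rank. Pairs higher by 20 points had a median width of 547 bp in Control and 1086 bp in IFNγ+PJ34, and pairs lower by 20 points 1004.5 bp in Control and 417 bp in IFNγ+PJ34.

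**Figure D3:**
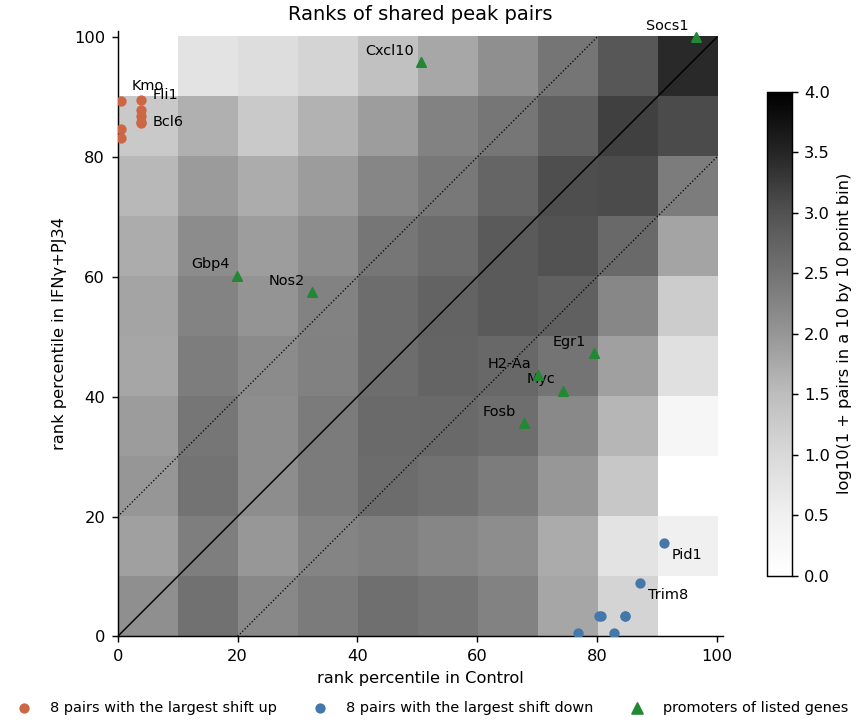
Rank percentile in Control (x axis) and in IFNγ+PJ34 (y axis) of the 27332 shared pairs, as grey bins of 10 by 10 points on a log10 scale, with the line of equal rank and dotted lines 20 points above and below it. Orange circles are the 8 pairs with the largest upward shift, at 3.96 or below in Control and above 83 in IFNγ+PJ34, blue circles the 8 with the largest downward shift, and green triangles the promoters of named genes, with Gbp4, Nos2 and Cxcl10 above the band, Socs1 inside it and Fosb, Egr1, Myc and H2-Aa below it.

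The largest upward shift was at an internal start site of Kmo, which encodes kynurenine 3-monooxygenase, an enzyme of tryptophan breakdown. The pair went from percentile 0.529 in Control to 89.4 in IFNγ+PJ34, from 806 to 3224 bp in width and from 1.94 to 20.0 in fold enrichment over local background. It was at 46.7 in IFNγ and 50.8 in PJ34, between the Control and the combined values. A pair in an intron of Fli1, an ETS transcription factor gene, went from 3.96 in Control to 89.5 in IFNγ+PJ34, with 65.2 in IFNγ and no peak in PJ34. Near Bcl6, a transcriptional repressor gene, a pair went from 3.96 to 86.9. The others of the 8 were nearest to Spdye4c, Gpr171, Rps13, Capza2 and Stx7, and reached percentiles from 83.2 to 87.9. At each of the 8, a narrow Control peak of 248 to 1054 bp faced an IFNγ+PJ34 peak of 1838 to 5573 bp. The IFNγ+PJ34 peaks near Gpr171, Bcl6 and Stx7 also overlapped a further Control peak each, at percentiles 32.5, 11.5 and 11.5.

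The largest downward shift was in an intron of Ccdc57, from percentile 82.9 in Control to 0.524 in IFNγ+PJ34. That site was at 85.1 in IFNγ and 88.6 in PJ34, above the Control value. Traf1, an adaptor of TNF receptors, had a pair in an intron, with its summit 1.02 kb from the start site, that went from 84.6 to 3.47, and from 6022 bp to 314 bp. The best IFNγ+PJ34 peak anywhere in that region was at 8.96, while IFNγ and PJ34 had peaks at 90.5 and 96.0. At Tnip1, an inhibitor of NF-κB signalling, the paired peak went from 84.6 to 3.47, but the Control peak of 6285 bp was covered by 6 IFNγ+PJ34 peaks and the best of these was at 50.2. At Ccr3, a chemokine receptor gene, the Control peak was likewise covered by 3 peaks, with the best at 53.02. A pair in an intron of Pid1 went from 91.2 to 15.6, with 53.7 in IFNγ and 87.4 in PJ34. Pairs near Trim8, Tlx1 and Pde4b went from between 76.8 and 87.2 in Control to between 0.524 and 8.96, and the Control peak near Pde4b was covered by 2 IFNγ+PJ34 peaks, the better at 21.9. At 7 of the 8 sites, all but that of Pid1, both single-treatment lists had a peak at percentile 63.8 or higher. The share over all pairs of like Control rank was not counted.

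Peaks of the IFNγ+PJ34 list were narrower and more broken up. The median log2 ratio of widths, IFNγ+PJ34 over Control, was -0.28 over all pairs, a ratio of 0.823. Of the Control peaks found in IFNγ+PJ34, 5325 (18.1%) were covered by 2 or more IFNγ+PJ34 peaks, against 2031 (5.97%) in the reverse direction. Among pairs in the upper 50% of both lists, the largest ratios were near Fcho2, Fcgr3, Runx1, Thada and Etv6. The pair in Fcgr3, a receptor for antibody, was 564 bp wide in Control and 4733 bp in IFNγ+PJ34, where 2 Control peaks faced a single IFNγ+PJ34 peak. The smallest ratios were near Pid1, Nek9, Slc16a10, Fam129b and Ctu1. At Pid1, a Control peak of 8568 bp faced 3 IFNγ+PJ34 peaks, of which the paired peak was 752 bp wide.

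Genes were then grouped by function. A promoter value is the percentile of the highest-ranked peak with its summit within 1 kb of a start site. Over all protein-coding genes with such a peak in both lists, 10205 genes, the median shift was -3.41 points, 27.9% were higher by any amount, 72.1% were lower by any amount, 1.52% were higher by 20 points and 6.89% were lower by 20 points. The median Control percentile of these promoters was 85.9, so many had no room to rise by 20 points. Within 50 kb of a start site, 29.2% of 21840 genes had an IFNγ+PJ34-only peak and 42.8% had a Control-only peak. Among the genes with a promoter peak in both lists these shares were 40.9% and 60.2%. The list values below are read beside these shares.

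The 78 listed IFNγ-response genes were mostly higher in IFNγ+PJ34. Of 76 genes found in the annotation, 64 had a promoter peak in both lists, with a median shift of 4.70 points, and 48 of 64 were higher (75%, beside 27.9% of all genes). By 20 points, 6 were higher (9.38%, beside 1.52% of all genes) and 4 lower (6.25%, beside 6.89%). The 6 include Gbp4 and Gbp8, which share an IFNγ+PJ34 peak. Since some genes share a promoter, the 64 genes stood for 62 distinct IFNγ+PJ34 peaks. An IFNγ+PJ34-only peak lay within 50 kb of 66 of 76 genes (86.8%, 77.1 to 93.5%, beside 29.2% of all genes), in all 179 distinct peaks. A Control-only peak lay near 42 of 76 (55.3%, 43.4 to 66.7%, beside 42.8%). Both intervals take the genes as independent, but neighbouring genes share peaks, so they are too narrow. Among the 64 genes with a promoter peak in both lists, 87.5% had an IFNγ+PJ34-only peak (beside 40.9% of all such genes) and 56.3% a Control-only peak (beside 60.2%).

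The guanylate-binding proteins are GTPases that attack vacuoles and bacteria in the cytosol. They were higher at 8 of 8 genes with a promoter peak in both lists (beside 27.9% of all genes). The median shift was 18.6 points. These 8 stood for 7 distinct peaks, since Gbp4 and Gbp8 share a peak. The Gbp4 promoter was at percentile 19.9 in Control, 48.7 in IFNγ and 60.2 in IFNγ+PJ34, with no peak in PJ34. Gbp2 was at 85.4 in Control, 97.2 in IFNγ, 89.3 in PJ34 and 99.2 with both. Gbp5 was at 80.2, 96.5, 80.9 and 98.4 in the same order. In both genes the Control and PJ34 values were close and the IFNγ and IFNγ+PJ34 values stood above them. Of 10 matched genes, 10 had an IFNγ+PJ34-only peak within 50 kb (beside 29.2% of all genes) and 0 had a Control-only peak (beside 42.8%). Neighbouring genes share peaks, however, and the 10 genes stood for 25 distinct ones. The best of these, chr5:105144407-105147391, at percentile 85.7 and 6.02 kb from Gbp4, is the source of the Gbp4 stretch shown above. IFNγ had peaks there and PJ34 had none.

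The immunity-related GTPases, which act on vacuoles that hold pathogens, were higher at 6 of 6 promoters (beside 27.9% of all genes). The median shift was 6.34 points. Iigp1 was at percentile 11.5 in Control, 79.0 in IFNγ and 79.2 in IFNγ+PJ34, with no peak in PJ34. Tgtp1 had no promoter peak in Control or PJ34 and was at 46.7 in IFNγ and 55.4 in IFNγ+PJ34. Irgm1, at 97.9 in Control, was at 99.99 in IFNγ+PJ34. None of the 7 genes had a Control-only peak within 50 kb, where 42.8% of all genes had one.

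Among the chemokines and feedback inhibitors of the response, Cxcl10, which attracts T cells, was at percentile 50.7 in Control, 90.9 with IFNγ, 70.3 with PJ34 and 95.8 with both. Cxcl9 had no promoter peak in Control or PJ34 and was at 68.5 in IFNγ and 45.6 in IFNγ+PJ34. For Ccl5 the order differed: its promoter was at 47.2 in Control, 52.2 in IFNγ and 56.3 in PJ34, and no IFNγ+PJ34 peak covered it. Socs1, an inhibitor of JAK kinases, was at 96.5 in Control and 99.99 in IFNγ+PJ34 and had 7 IFNγ+PJ34-only peaks within 50 kb. Socs3 was at 91.8 and 99.0, and Usp18 at 92.8 and 97.2.

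Receptor and kinase genes differed little, with a median shift of -1.52 points at Ifngr1, Ifngr2, Jak1 and Jak2. Of 12 transcription factor genes, 8 were higher (66.7%, beside 27.9% of all genes). Batf2, a partner of IRF1, went from 58.0 to 81.1 and Ciita, the activator of MHC class II genes, from 61.3 to 76.1. Irf8 went from 90.5 to 94.1, while Irf1 was at 98.3 in Control and 97.0 in IFNγ+PJ34. Irf2 is listed as lower, at 68.6 and 8.96, but the highest-ranked peak that overlapped its promoter was at 99.6 in both lists, with its summit farther away.

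Of 13 antigen presentation genes with a promoter peak in both lists, 5 were higher (38.5%, beside 27.9% of all genes) and 8 lower. The median shift was -1.44 points, beside -3.41 over all genes. By 20 points, 0 were higher and 3 lower (23.1%, beside 6.89% of all genes). Within 50 kb, 13 of 14 listed genes had an IFNγ+PJ34-only peak (92.9%, beside 29.2% of all genes), in all 11 distinct peaks. A Control-only peak lay near 12 of 14 (85.7%, beside 42.8%), in all 29 distinct peaks. The classes named next were drawn from this list after its values were seen. The 5 that ranked higher, Psmb8, Psmb9, Psmb10, Tap1 and Tapbp, act in peptide processing or loading: Psmb8 went from 91.2 to 98.4, Psmb10 from 96.0 to 99.7, and Tap1 and Psmb9, which share a promoter, from 93.6 to 99.7. Tap2, B2m and H2-DMa, also on the list, were not among the 5, so peptide loading genes did not all rank higher. The MHC class II genes H2-Aa, H2-Ab1 and H2-Eb1 ranked lower. H2-Aa was at percentile 70.2 in Control, 69.8 with IFNγ, 64.6 with PJ34 and 43.6 with both. H2-Eb1 was at 55.9, 53.7, 71.6 and 27.04 in the same order. H2-Ab1 went from 70.6 to 55.4 and Cd74, the invariant chain, from 65.2 to 38.4, where the highest-ranked peak over the Cd74 promoter, with its summit farther away, went from 85.1 to 72.1. In H2-Aa and H2-Eb1 the IFNγ value lay within 3 points of Control and the combined value below both. H2-Aa had 12 Control-only peaks within 50 kb and H2-Eb1 had 11, and these neighbouring genes share some of them. Among MHC class I genes, H2-K1 went from 98.8 to 97.3 and H2-D1 from 99.1 to 95.0.

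Antiviral genes were higher at 8 of 8 promoters with a peak in both lists (beside 27.9% of all genes). The median shift was 7.55 points. Ifit1 was at percentile 79.99 in Control, 93.4 with IFNγ, 78.6 with PJ34 and 94.4 with both, and Zbp1, a sensor of Z-form nucleic acid, was at 91.4, 98.6, 83.2 and 98.4. At both, PJ34 alone was below Control. Of 9 effector genes, 8 were higher (88.9%, beside 27.9% of all genes). Nos2, the inducible nitric oxide synthase, was at 32.5 in Control, 69.3 in IFNγ, 66.1 in PJ34 and 57.4 after the combined treatment, which placed the combined value above Control and below both single treatments. Cd274, which encodes the checkpoint ligand PD-L1, went from 89.3 to 99.8 and had 9 IFNγ+PJ34-only peaks within 50 kb. The best of these, at percentile 90.6 and 4885 bp wide, lay 36.0 kb from the Cd274 start site, nearer to that of Pdcd1lg2, the gene for the related ligand PD-L2, and is the source of the Cd274 stretch shown above.

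**Figure D4:**
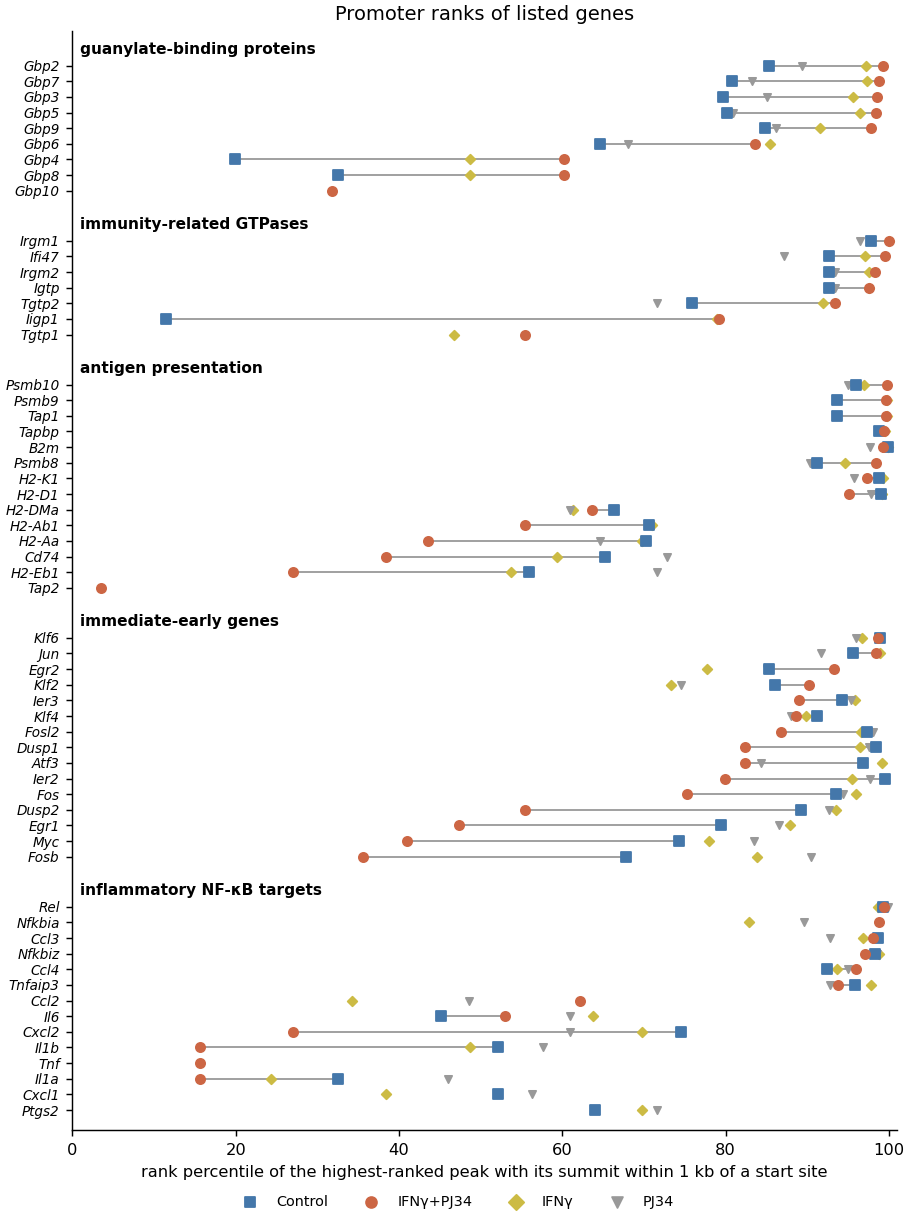
Rank percentile (x axis) of the highest-ranked promoter peak of listed genes in Control (blue squares), IFNγ+PJ34 (orange circles), IFNγ (yellow diamonds) and PJ34 (grey triangles), with a line joining Control and IFNγ+PJ34. A missing symbol means no peak summit within 1 kb of a start site; orange lies right of blue in all GTPase rows with both, and left of it in 12 of 15 immediate-early rows.

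Immediate-early genes, which encode AP-1, EGR and KLF factors and phosphatases that respond within minutes to many stimuli, included several promoters that ranked lower in IFNγ+PJ34. Of 15 with a promoter peak in both lists, 12 were lower (80%, beside 72.1% of all genes), and 4 were lower by 20 points (26.7%, beside 6.89%). The median shift was -14.5 points, beside -3.41 over all genes. Fosb was at percentile 67.7 in Control, 83.8 with IFNγ, 90.4 with PJ34 and 35.5 with both. Egr1 was at 79.4, 87.9, 86.6 and 47.3 in the same order. Myc was at 74.3, 77.9, 83.5 and 41.0, and Dusp2, a phosphatase of MAP kinases, was at 89.2, 93.5, 92.6 and 55.4. In each of these 4 genes both single treatments were above Control and the combined treatment was below it. Fos went from 93.5 to 75.3, Ier2 from 99.5 to 79.9 and Dusp1 from 98.5 to 82.4. Atf3 went from 96.9 to 82.4, but a peak that overlapped its promoter with a summit farther away was at 98.8 in IFNγ+PJ34. For Fosb the highest-ranked peak over the promoter went from 74.0 to 56.4. Junb, Jund and Zfp36 had no summit within 1 kb, but broad peaks over their promoters were at 96.5 or higher in both lists.

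The peaks at these promoters were also narrower, with a median log2 width ratio of -1.40, beside -0.25 over all genes. Klf2, Egr2 and Jun were higher, with Egr2 at 85.2 in Control and 93.3 in IFNγ+PJ34. Within 50 kb, 15 of 19 listed genes had a Control-only peak (61 distinct peaks) and 10 had an IFNγ+PJ34-only peak (18 distinct peaks). Among the 15 with a promoter peak in both lists, the counts were 12 (80%, beside 60.2% of all such genes) and 8 (53.3%, beside 40.9%). Near Fosb the best of them, 6.10 kb from a start site, was at percentile 68.6 in Control and had no peak in any of the other lists.

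Inflammatory NF-κB targets were not uniform. Of 9 with a promoter peak in both lists, 3 were higher (33.3%, beside 27.9% of all genes) and 6 lower. The median shift was -1.25 points, beside -3.41 over all genes. By 20 points, 0 were higher and 2 lower (22.2%, beside 6.89% of all genes). Il1b, the cytokine interleukin-1β, was at percentile 52.1 in Control, 48.7 with IFNγ, 57.6 with PJ34 and 15.6 with both, and the highest-ranked peak over its promoter went from 82.4 to 15.6. Cxcl2, a neutrophil chemokine, was at 74.5, 69.8, 60.9 and 27.04. Cxcl1 was at 52.1, 38.4 and 56.3 in the first 3 lists and had no IFNγ+PJ34 peak. Ptgs2, the inducible cyclooxygenase, was at 64.0, 69.8 and 71.6 and had none either. By contrast Ccl4 went from 92.4 to 95.9, and Rel, Nfkbiz and Tnfaip3 were between 93.8 and 99.4 in both lists. Within 50 kb, 14 of 14 listed genes had a Control-only peak (81 distinct peaks, with 15 each near Il1b and Nfkbiz) and 9 had an IFNγ+PJ34-only peak (36 distinct peaks). Among the 9 with a promoter peak in both lists, the counts were 9 (beside 60.2% of all such genes) and 7 (77.8%, beside 40.9%). Near Il1b the best of them was at 67.7 in Control.

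The genes with the most IFNγ+PJ34-only peaks nearby formed a chemokine cluster on chromosome 11. Within 50 kb, Ccl7 had 23 such peaks and Ccl2, Ccl11 and the predicted gene Gm17268 had 21 each, largely the same peaks. The Ccl7 promoter was at percentile 19.9 in Control, 46.7 with IFNγ, 56.3 with PJ34 and 79.9 with both. Ccl2, which attracts monocytes, had no promoter peak in Control and was at 34.3, 48.6 and 62.2 in IFNγ, PJ34 and IFNγ+PJ34. At both genes each single treatment lay between Control and the combined treatment. Selp, an adhesion molecule gene, had 20 IFNγ+PJ34-only peaks and 0 Control peaks within 50 kb. The genes with the most Control-only peaks were Psma6 (19), Abr (18), Lpl (17), Grasp (16) and Tmed10 (16). Psma6 neighbours Nfkbia, which encodes the NF-κB inhibitor IκBα and had 12 such peaks.

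Macrophage identity genes had a median shift of -1.25 points over 13 promoters, above that of all genes, and 0 of 13 passed 20 points. Mrc1, the mannose receptor, went from 78.9 to 88.2 and Mertk, a receptor for dying cells, from 80.8 to 90.8, where IFNγ alone was at 62.9 and 44.0. Lyz2 went from 97.7 to 88.5 and Cebpa from 87.7 to 71.7. Control-only peaks lay near 14 of 16 genes, with 10 near Cd14 and 9 each near Spi1 and Csf1r, and IFNγ+PJ34-only peaks near 9 of 16. Among the 13 with a promoter peak in both lists, the counts were 11 (84.6%, beside 60.2% of all such genes) and 8 (61.5%, beside 40.9%).

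Genes of ADP-ribosylation and NAD metabolism were higher at 9 of 12 promoters (75%, beside 27.9% of all genes), with a median shift of 1.23 points and 0 of 12 past 20 points. Parp3 was at percentile 81.6 in Control, 93.4 with IFNγ, 90.5 with PJ34 and 97.3 with both. Parp10 went from 88.4 to 97.0, and Nampt, the rate-limiting enzyme of NAD salvage, from 97.3 to 99.8 with 10 IFNγ+PJ34-only peaks within 50 kb. Parp9 and Dtx3l, which share a promoter, went from 98.5 to 99.96. Parp1 itself went from 79.8 to 72.5, with 69.8 in IFNγ and 68.0 in PJ34, and Parp2 was at 88.4 and 87.9. Within 50 kb, 12 of 12 genes had a Control-only peak (beside 60.2% of all genes with a promoter peak in both lists) and 7 of 12 an IFNγ+PJ34-only peak (58.3%, beside 40.9%).

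Cholesterol and lipid genes were lower at 8 of 10 promoters, beside 72.1% of all genes, with a median shift of -6.12 points. Sqle, squalene epoxidase, was at percentile 84.6 in Control, 74.8 with IFNγ, 76.0 with PJ34 and 48.7 with both. Apoe was at 78.1, 4.55, 54.8 and 58.4, so its lowest value was in IFNγ alone. Abcg1, a cholesterol exporter, went from 85.4 to 91.8. Housekeeping genes were likewise lower at 8 of 10 promoters, with a median shift of -3.23 points, close to that of all genes. Of these 10, 7 had a Control-only peak within 50 kb (70%, beside 60.2% of all genes with a promoter peak in both lists). An IFNγ+PJ34-only peak lay near 6 (60%, beside 40.9%), so housekeeping genes too stood above the share of all such genes. Genes of the p53 and damage response were lower at 5 of 8 and higher at 3 (37.5%, beside 27.9% of all genes). Their median shift was -1.22 points, beside -3.41 over all genes. Cdkn1a, the cell cycle inhibitor p21, went from 68.6 to 86.8 while another peak over its promoter went from 98.5 to 95.0.

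The letters of motifs around peak summits were then counted. Within 100 bp of the summit, 6.97% of IFNγ+PJ34-only peaks held a GAS match (6.45 to 7.52%), beside 5.65% of Control-only peaks (5.27 to 6.04%) and 5.75% of all IFNγ+PJ34 peaks. For a control motif with the ends of GAS exchanged (GAANNNTTC), the shares were 5.37% and 4.81%. The difference was small in this window. After these values were seen, matches were counted by distance from the summit. In IFNγ+PJ34-only peaks, GAS matches numbered 74.9 per 1000 peaks within 100 bp of the summit and 169 per 1000 peaks (exact Poisson 95% interval 160 to 178) between 200 and 300 bp from it. In Control-only peaks the numbers were 60.4 and 54.6 (50.8 to 58.6). The control motif gave 56.3 and 59.8 in IFNγ+PJ34-only peaks and 51.5 and 47.4 in Control-only peaks.

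GAS matches between 200 and 300 bp were thus 2.82 times as dense as control matches in IFNγ+PJ34-only peaks and 1.15 times in Control-only peaks. Shared pairs higher by 20 points had 176 GAS matches per 1000 peaks at that distance from the IFNγ+PJ34 summit. Pairs lower by 20 points had 48.0 at that distance from the Control summit. Beside these, all IFNγ+PJ34 peaks had 94.6 and all Control peaks 65.0 around their own summits. Away from promoters, the value for IFNγ+PJ34-only peaks was 171 per 1000. Matches of the ISRE core numbered 146 per 1000 IFNγ+PJ34-only peaks and 81.5 per 1000 Control-only peaks at the same distance, beside 106 over all IFNγ+PJ34 and 91.1 over all Control peaks. AP-1 matches were ordered the other way, with 104 and 142 per 1000. Over all IFNγ+PJ34 peaks AP-1 matches numbered 105 per 1000, close to IFNγ+PJ34-only peaks, and over all Control peaks 119. PU.1 matches, 47.2 and 52.2, and NF-κB matches, 11.2 and 12.3, differed less. The GAS matches in the Tnfsf18, Gbp4, Gbp10, Cd274 and Kmo stretches shown above lie between 224 and 318 bp from their summits, but those stretches were chosen to hold a match.

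**Figure D5:**
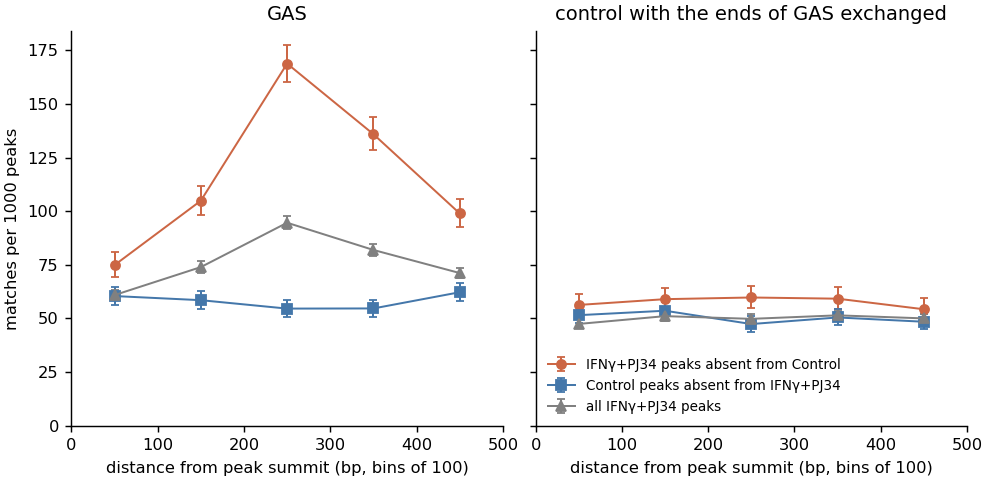
GAS matches (left) and control motif matches (right) per 1000 peaks (y axis) by distance from the peak summit (x axis, bins of 100 bp) in IFNγ+PJ34-only peaks (orange circles), Control-only peaks (blue squares) and all IFNγ+PJ34 peaks (grey triangles). Bars are exact Poisson 95% intervals: the orange GAS curve reaches 169 per 1000 between 200 and 300 bp, against 54.6 in Control-only peaks, while all control motif values lie between 47 and 60.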

How the data were processed

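H3K27ac ChIP-seq of mouse BMDMs was deposited as 1 peak list per condition on mm10. The authors aligned reads with Bowtie, filtered them with Samtools and Picard, called relaxed peaks in each replicate against input with MACS at a p threshold of 0.01, and kept peaks that overlapped in both replicates. Each deposited row gives a score from 10 to 1000, a fold enrichment (ratio to local background), −log10 p-values and −log10 q-values, and a summit offset. Reads per sample are not given in the files used here, so depth is unknown.

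Peaks were grouped by condition from the labels. A peak was absent from the other list when it overlapped none of its peaks by 1 bp. Scores were ranked within each list, ties sharing their mean rank. Summits were placed against 21840 protein-coding genes of GENCODE M21 (basic set), with promoters within 1 kb of a start site. Of 197 genes in 21 lists, 195 were matched, and Cxcl11 and Gbp11 were not. The named peaks were the 8 highest-ranked absent peaks and the 8 largest shifts in each direction, the 5 largest and 5 smallest width ratios among pairs in the upper 50% of both lists, the 5 genes with the most absent peaks within 50 kb in each direction, and the listed genes. The members and gene lists were chosen with earlier results of these data known. The counts of motifs by distance from the summit, and the 601 bp windows, were added after the data were seen.

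With 1 list per condition no test was run; shares carry exact Clopper-Pearson 95% intervals and motif densities exact Poisson intervals. The scripts were tested on simulated data and used Python 3.11.15, numpy 2.4.6, pandas 2.3.3, scipy 1.17.1 and pysam 0.24.0. Alternatives varied the overlap rule, the ranked column, the pairing, the thresholds, the gene distance and the motif window.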

Additional observations from a re-analysis of the deposited data

How the results depend on the processing

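No paired analysis was possible because each condition has 1 list, made from both replicates, and no result comes from a test. Leaving out a replicate was likewise not possible. Of 48 alternatives to 9 values, 41 were planned and 7 added after seeing the data; 19 gave the same value within its interval and 29 moved. No single value changed sign, but the order of the shares set side by side turned where noted.

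The share of IFNγ+PJ34 peaks absent from Control was 24.9% when 50% of the peak had to be covered, 14.9% when peaks within 1 kb counted as shared, 20.1% with equal q-value limits and 7.92% in the upper 50% of the list. Under the same settings the share of Control peaks absent from IFNγ+PJ34 was 41.5%, 21.8%, 33.3% and 6.55%, so that in the upper 50% the order of the shares turned, and it was 31.8% with lists of equal length. Pairs higher and lower by the threshold made up 14.1% and 13.3% with percentiles among the pairs alone, where the order turned, 11.7% and 19% by fold enrichment, 10.1% and 16.9% after nearby peaks were merged, 19.4% and 32.4% at 10 points, and 5.71% and 9.41% at 30 points. The median log2 width ratio was -0.22 after merging, -0.23 in the upper 50%, and -0.21 for pairs that overlap no other peak. The median promoter shift of IFNγ-response genes was 7.69 points among pairs alone. IFNγ-response genes with an IFNγ+PJ34-only peak made up 44.7% within 10 kb (9.85% of all genes) and 36.8% from the upper 50% (8.34% of all genes). Those with a Control-only peak made up 31.6% within 10 kb (17.7% of all genes), 67.1% within 100 kb (58.1%) and 9.21% from the upper 50% (8.603%). Within 250 bp of the summit, 22.8% of IFNγ+PJ34-only peaks held a GAS match, beside 16.2% of all IFNγ+PJ34 peaks and 13.3% of Control-only peaks. The absence of read counts leaves depth unknown in both lists.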

Other observations

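The share of IFNγ+PJ34 peaks absent from Control ran from 15.0% on chromosome 7 to 26.3% on chromosome 1 among the autosomes, and the share of Control peaks absent from IFNγ+PJ34 ran from 28.2% on chromosome 3 to 36.0% on chromosome 12. On the X chromosome the shares were 19.8% and 29.9%.

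Some marker genes of other cell types stood near absent peaks. Of 25 such genes, 10 had an IFNγ+PJ34-only peak within 50 kb (40%, beside 29.2% of all genes). A Control-only peak lay near 12 (48%, beside 42.8%). Cd209a, a dendritic cell gene, had an IFNγ+PJ34-only peak at percentile 66.7 within 50 kb, and Siglech had a Control-only peak at percentile 58.9. Ms4a1, a B cell gene, had 4 IFNγ+PJ34-only peaks within 50 kb, the best at percentile 80.9, while its promoter was at 55.9 in Control and 15.6 in IFNγ+PJ34.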
